A study of Mus musculus with 12 samples.

Results

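Aminoacyl-tRNA synthetases are described here in mouse embryonic fibroblasts (MEFs) with and without the cardiolipin-remodelling enzyme tafazzin, in normoxia and in hypoxia. The set holds 36 of the 48709 genes in the count tables, found by gene symbol: 20 genes of the cytosolic class and 16 of the mitochondrial class, whose names end in 2. Gars and Kars, counted with the cytosolic class, each make the enzyme of both compartments. All 36 passed the filter on low counts. The study holds 12 RNA-seq libraries of cultured C57BL/6 MEFs, 3 in each of 4 groups: WT in normoxia, TAZKo in normoxia, WT in hypoxia and TAZKo in hypoxia. By the labels TAZKo cells lack tafazzin, the WT cells are isogenic to them, and hypoxia lasted 24 hours in a hypoxia workstation. The oxygen level, the way the cells were immortalised or passaged and the number of embryos or clones behind a group are not given in the sources used here. No label says that the 3 libraries of a group came from separate cultures, so a p-value measures the spread between these libraries, which may be technical. The series asks how tafazzin loss bears on the response to hypoxia, and both synthetase classes were compared over the 4 groups.

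A synthetase joins an amino acid to its tRNA, the step that sets which amino acid a codon receives. Cytosolic enzymes serve the ribosomes that translate nuclear messages, while a second set, also encoded in the nucleus, is imported into mitochondria and serves the small set of proteins of the respiratory chain encoded by mitochondrial DNA. Several cytosolic enzymes sit together in a multisynthetase complex held by scaffold proteins. When amino acids run short or mitochondria are disturbed, the transcription factor ATF4 is made in larger amounts, and many cytosolic synthetase genes are known among its targets through a promoter element, the C/EBP-ATF response element.

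Promoter windows of RefSeq (GRCm38.p6, 250 bases before to 50 after the start) were found for 27 of the 36 members, 13 cytosolic and 14 mitochondrial. No window was matched for Cars, Hars, Lars, Nars, Rars, Vars, Wars, Hars2 and Pars2. The core of the C/EBP-ATF element was searched as TGATGNAA on both strands. It occurred in 5 of 13 cytosolic windows, among them those of Gars, Iars, Tars and Yars, and in 0 of 14 mitochondrial windows. Of all 32851 windows in the table, 3.97% held it. The searched windows of Mars1, Sars, Eprs and Farsb, genes called higher in TAZKo normoxia below, held no match. The same was true of Dars, Farsa, Kars and Qars. The stretches below show the matches in Gars, Iars, Tars and Yars, whose levels are described further on, with the match in capitals on the strand of the gene. For the mitochondrial class, Rars2 is shown with its match to ACGTG, a core of the hypoxia response element, in capitals (read as CACGT on this strand).
Tars (threonine), chr15:11399659-11399808, minus strand: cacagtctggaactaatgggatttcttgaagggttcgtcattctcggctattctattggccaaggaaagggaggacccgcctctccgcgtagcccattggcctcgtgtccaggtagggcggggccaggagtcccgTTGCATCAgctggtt
Gars (glycine), chr6:55037851-55038000, plus strand: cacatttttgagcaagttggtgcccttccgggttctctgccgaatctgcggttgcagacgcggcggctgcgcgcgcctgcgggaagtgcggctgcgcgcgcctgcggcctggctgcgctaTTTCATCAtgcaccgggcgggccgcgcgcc
Iars (isoleucine), chr13:49682126-49682155, plus strand: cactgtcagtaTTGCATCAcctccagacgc
Yars (tyrosine), chr4:129189895-129189924, plus strand: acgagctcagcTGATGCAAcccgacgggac
Rars2 (arginine, mitochondrial), chr4:34614807-34614864, plus strand: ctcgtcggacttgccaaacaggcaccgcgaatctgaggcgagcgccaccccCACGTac
Counted from the RefSeq start, the matches shown lie at position -15 in Tars, -30 in Gars, 8 in Iars and 4 in Yars, and all but that of Yars read TGATGNAA on the strand opposite to the gene. The 2 cores of the hypoxia response element were common in both classes and in all windows: ACGTG occurred in 6 of 13 cytosolic and 4 of 14 mitochondrial windows against 19.6% of all windows, and GCGTG in 10 of 13 and 10 of 14 against 32.4%. These short cores may share bases with each other and with the edge of TGATGNAA. A match describes these letters and is no evidence of binding, and the 9 genes without a window were not searched.

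The libraries held 21039451 to 31204510 counts, and levels are given as CPM, counts scaled to a common library size. Taz, the targeted gene, was not lower in the libraries labelled TAZKo. Its level was 38, 33.3 and 32.7 CPM for WT against 45.8, 39.8 and 41 CPM for TAZKo under normoxia, and 25.5, 26.4 and 23.5 against 33.6, 32.8 and 35.1 CPM under hypoxia, log2 differences of 0.29 and 0.43 with adjusted p-values of 0.0139 and 0.00112 by edgeR. The transcript count therefore does not check the label, and the groups are called by their labels throughout. Fibroblast markers, 9 of 11 of them over 1 CPM, summed to between 10394 and 13310 CPM in all libraries. However, Lum and Thy1 had at most 2 and 8 counts in any library. Col1a2, 1 of the 9, had only 36 to 147 counts, against 26843 to 95937 for Col1a1. The epithelial keratin gene Krt14 had 2475 to 6303 counts. The 4 epithelial markers, of which only Krt14 exceeded 1 CPM, summed to 219 to 279 CPM for WT and 98.5 to 107 CPM for TAZKo under normoxia and to 198 to 207 and 130 to 137 CPM under hypoxia. The 4 endothelial markers summed to 18 to 21 and 5.64 to 7.45 CPM, then 14.5 to 20.5 and 3.84 to 5.05 CPM, and 4 immune markers to at most 13.8 CPM. The epithelial and endothelial lists moved with the genotype, while the fibroblast sums of the genotypes overlapped in both conditions. The immune list moved with hypoxia, from 4.49 to 5.57 CPM in WT and 4.42 to 5.3 CPM in TAZKo under normoxia to 11.7 to 13.8 and 7.99 to 9.91 CPM. The part of these lists in the synthetase differences was not tested. In cultured cells measured in bulk, fewer cells of a kind and less RNA per cell cannot be told apart. Between the genotypes whole chromosomes were shifted: over the tested genes, the median log2 difference of TAZKo against WT in normoxia was 0.31 on chromosome 10, -0.22 on chromosome 18, -0.27 on chromosome 19, -0.16 on chromosome 8 and 0.13 on chromosomes 3 and 4. Genes on these chromosomes are named as such below, and the part of the shift in their differences was not tested.

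Per kilobase of annotated exon, the cytosolic class was the more abundant. Over all 12 libraries Gars had the highest mean level, 151 CPM per kilobase, followed by Nars with 125 and Sars with 97.5. The lowest cytosolic enzyme gene, Qars (glutamine), had 24 CPM per kilobase. Of the 16 mitochondrial genes, 15 were below every cytosolic gene, from 14.1 CPM per kilobase for Iars2 (isoleucine) down to 1.76 for Mars2 (methionine). Lars2, the mitochondrial leucine enzyme gene, was the exception with 39.2 CPM per kilobase, and its counts are taken up separately since they did not behave like those of the other members.

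Both classes moved, in different directions and along different contrasts. Summed over its 20 genes, the cytosolic class of WT cells stood at 5172 ± 278 CPM (SD, n = 3) under normoxia and 6295 ± 190 CPM under hypoxia, and that of TAZKo cells at 6314 ± 326 and 7045 ± 198 CPM. The 15 mitochondrial genes other than Lars2 summed to 554 ± 16.7 and 464 ± 13.5 CPM for WT and to 524 ± 22.2 and 433 ± 9.35 CPM for TAZKo. As a percentage of the cytosolic sum this was 10.7% ± 0.28 and 7.39% ± 0.44 for WT, and 8.3% ± 0.2 and 6.15% ± 0.11 for TAZKo. No group overlapped another: the WT libraries had 10.5%, 10.6% and 11% under normoxia and 7.89%, 7.19% and 7.08% under hypoxia, the TAZKo libraries 8.37%, 8.07% and 8.45% and then 6.03%, 6.17% and 6.25%. Leaving Lars2 out of the sum was decided after its values were seen.

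**Figure D1:**
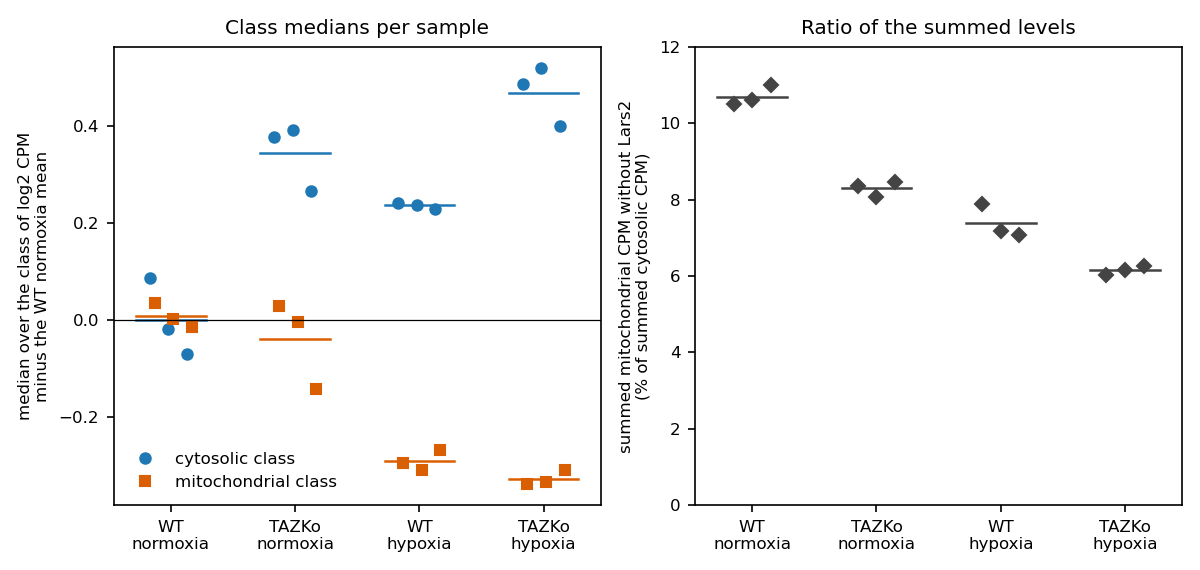
Left: for each library, the median over the 20 cytosolic genes (circles) and the 16 mitochondrial genes (squares) of log2 CPM minus the gene's mean in WT normoxia; right: summed CPM of the mitochondrial class without Lars2 as a percentage of the summed cytosolic CPM. Bars are group means of 3 libraries; the cytosolic medians are above WT normoxia in all other groups, and the mitochondrial medians are below it in the 6 hypoxia libraries.

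The per-library medians over the class show the same arrangement. Relative to WT normoxia, the cytosolic median of the TAZKo libraries was 0.38, 0.39 and 0.27 on the log2 scale under normoxia and 0.49, 0.52 and 0.4 under hypoxia, and that of the WT hypoxia libraries 0.24, 0.24 and 0.23. The mitochondrial median of the TAZKo libraries was 0.029, -0.005 and -0.14 under normoxia and -0.34, -0.34 and -0.31 under hypoxia, and that of the WT hypoxia libraries -0.29, -0.31 and -0.27. The cytosolic class was thus higher in both genotypes' hypoxia libraries and in the TAZKo libraries of normoxia, whereas the mitochondrial class was lower in hypoxia and lay around the WT level in TAZKo normoxia.

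**Figure D2:**
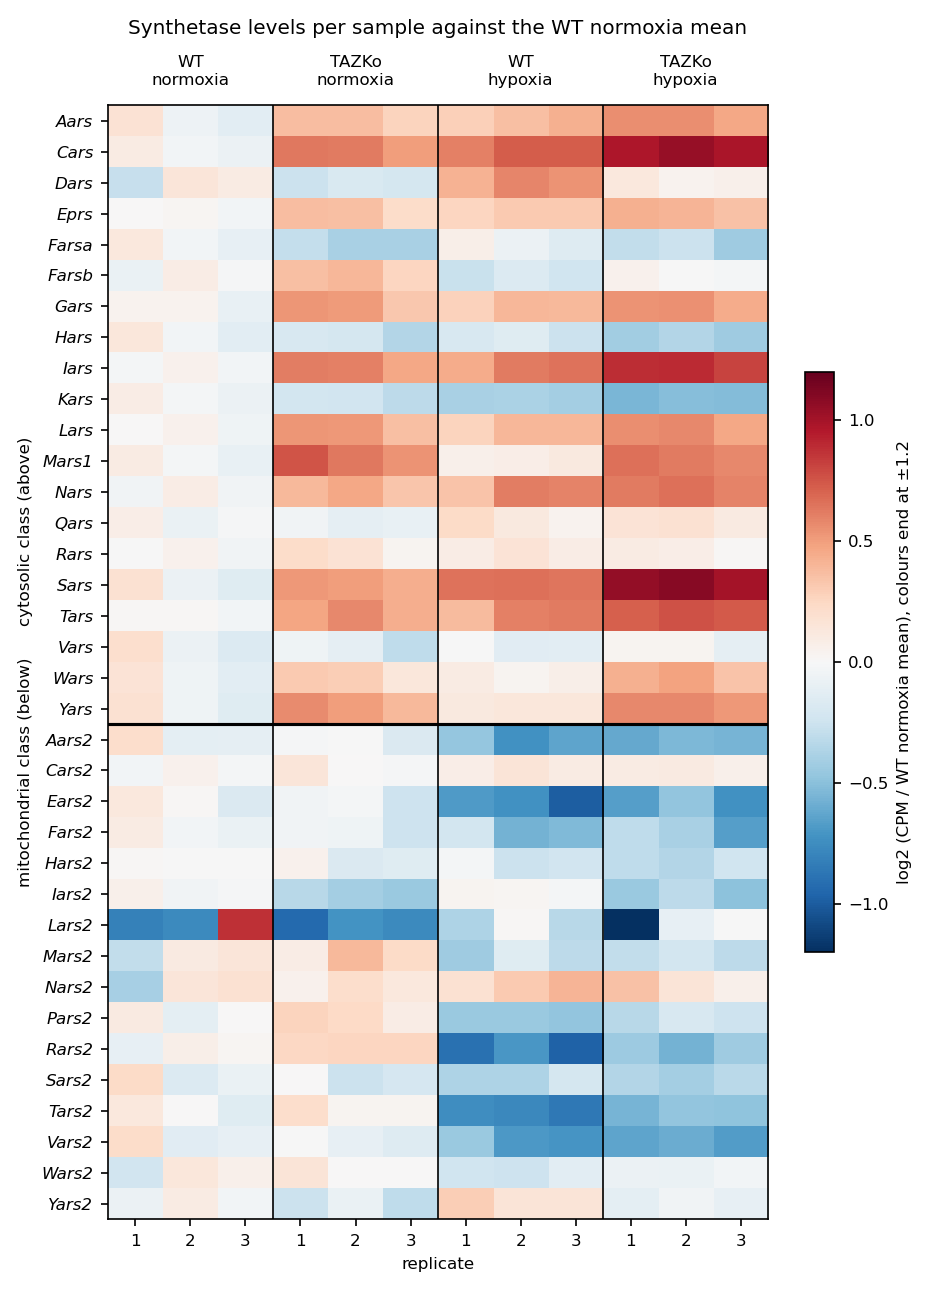
Level of each member in each of the 12 libraries as log2 of CPM over the gene's mean in WT normoxia, cytosolic class above the heavy line and mitochondrial class below it; colours end at ±1.2. Most cytosolic rows are red in the 9 libraries outside WT normoxia, with Farsa, Hars and Kars blue in the TAZKo libraries and Farsb, Hars and Kars blue in WT hypoxia, and Rars2, Ears2, Tars2, Vars2 and Aars2 are blue in hypoxia. Lars2 stands out in WT normoxia replicate 3 and TAZKo hypoxia replicate 1.

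In normoxia, the libraries labelled TAZKo had higher levels of most cytosolic synthetase genes than WT. Of the 20, 13 rose, 3 fell (Farsa, Kars and Hars) and 4 did not pass the test (edgeR's quasi-likelihood test, Benjamini-Hochberg adjusted p under 0.05 over all 14408 genes tested). In the same comparison 30.4% of all tested genes were called, 15.6% higher and 14.9% lower. The median log2 difference of the class was 0.34 against 0.01 over all tested genes. Within sequencing lanes, as named in the file names, it was 0.36 in lane 4 (2 libraries a group) and 0.33 in lane 5 (1 a group).

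Mars1, the methionine enzyme gene (chr10:127296221-127311786 in mm10), showed the largest cytosolic difference. It measured 221, 203 and 194 CPM in WT and 347, 320 and 299 CPM in TAZKo. The log2 difference was 0.64 (SE 0.066, edgeR adjusted p = 7.01e-06), a 1.56-fold higher level. Chromosome 10 had the raised median of 0.31 given above, and 68 bases of the Mars1 exons overlap Ddit3, an ATF4 target on the opposite strand whose log2 difference was 1.28. The sources used here do not state that strand was used in counting, so reads from such overlaps cannot be told apart.

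Cars, which charges cysteine, measured 160, 146 and 142 CPM in WT and 231, 229 and 211 CPM in TAZKo (log2 difference 0.58, SE 0.064, edgeR adjusted p = 1.33e-05). For Iars the values were 243, 256 and 242 CPM in WT and 379, 376 and 341 CPM in TAZKo (1.48-fold). Tars, shown above with its promoter match, rose from 243, 243 and 236 CPM to 334, 360 and 326 CPM (log2 difference 0.5, SE 0.067). Sars, for serine, rose from 378, 317 and 301 CPM to 475, 471 and 448 CPM, a 1.4-fold difference, and lies on chromosome 3. These 5 genes were chosen among the called ones whose groups do not overlap, as were the leading genes of each class in the hypoxia and genotype comparisons that follow. Over all tested genes the groups did not overlap in 42.8%, against 15 of 20 cytosolic and 3 of 16 mitochondrial genes.

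The other 8 genes that rose were Yars (on chromosome 4), Lars, Gars, Nars, Farsb, Aars, Eprs and Wars, with log2 differences from 0.25 to 0.48. Gars, the glycine enzyme gene of both compartments, measured 383, 381 and 349 CPM in WT and 534, 528 and 464 CPM in TAZKo (log2 difference 0.46, SE 0.067, edgeR adjusted p = 0.00018). Lars and Nars rose by 1.38-fold and 1.32-fold although they lie on chromosome 18, whose median was negative. Wars, the tryptophan enzyme gene, passed narrowly (log2 difference 0.25, edgeR adjusted p = 0.0278), its groups overlapped, and the call was lost without any single library other than WT normoxia replicate 1 or TAZKo normoxia replicate 3, 10 libraries in all (log2 difference 0.15 to 0.22).

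Farsa, Kars and Hars moved against the class. Farsa encodes the alpha subunit of the cytosolic phenylalanine enzyme, whose beta subunit is encoded by Farsb. It measured 146, 131 and 125 CPM in WT and 110, 102 and 102 CPM in TAZKo (log2 difference -0.35, SE 0.077, edgeR adjusted p = 0.00342). Farsb went the other way, from 85.5, 95.8 and 89.3 CPM to 116, 119 and 108 CPM (log2 difference 0.34, SE 0.061, edgeR adjusted p = 0.000819), so the 2 subunit genes of 1 enzyme differed in opposite directions. Of the Farsb exon bases, 9.5% overlap Sgpp2 on the opposite strand, a gene of 47 to 270 counts. Kars, the lysine enzyme gene of both compartments, measured 306, 284 and 274 CPM in WT and 248, 246 and 232 CPM in TAZKo (log2 difference -0.25, SE 0.055, edgeR adjusted p = 0.00313). Hars, for histidine, fell from 189, 168 and 158 CPM to 151, 149 and 135 CPM (log2 difference -0.24, edgeR adjusted p = 0.0198), a call lost without TAZKo normoxia replicate 3 (-0.23). Farsa and Kars lie on chromosome 8 and Hars on chromosome 18, both with negative medians, while Aars, also on chromosome 8, rose by 1.26-fold. Of the Aars exon bases, 15.1% overlap other genes, among them Exosc6 on the same strand. Reads from a stretch shared on the same strand cannot be assigned by strand, and the part of Exosc6 in the Aars counts was not tested.

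The mitochondrial class did not move together between the genotypes in normoxia. Of its 16 genes 1 rose, 2 fell and 13 did not pass, a median log2 difference of -0.08 (-0.14 without TAZKo normoxia replicate 1 and -0.03 without WT normoxia replicate 1), and the 3 called genes make a smaller share of the class than the 30.4% called over all genes. Iars2 (chr1:185284726-185329396 in mm10) measured 148, 138 and 141 CPM in WT and 113, 107 and 104 CPM in TAZKo (log2 difference -0.4, SE 0.06, edgeR adjusted p = 0.000223). Its cytosolic partner Iars rose in the same libraries. Of the Iars2 exon bases, 24.2% overlap genes on the opposite strand, chiefly Rab3gap2, which itself differed by -0.22.

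Rars2, the mitochondrial arginine enzyme gene, was the only one that rose, from 28.2, 31.6 and 30.5 CPM to 35.8, 36 and 36.1 CPM (log2 difference 0.26, SE 0.076, edgeR adjusted p = 0.0208). It lies on chromosome 4, and the call was lost without any of 6 libraries: WT normoxia replicate 3, the 3 TAZKo normoxia libraries and TAZKo hypoxia replicates 1 and 3 (0.22 to 0.23). Yars2, for tyrosine, fell from 32.7, 36.7 and 33.5 CPM to 28.7, 32.5 and 27.7 CPM, at the edge of the threshold (log2 difference -0.21, edgeR adjusted p = 0.0497), and was not called without WT normoxia replicate 2 or TAZKo normoxia replicates 1 or 3 (-0.22 to -0.19). Without TAZKo normoxia replicate 1 or 3, a single mitochondrial gene was called in place of 3. The class median within lanes was -0.05 in lane 4 and -0.06 in lane 5. With the replicate number as a block, Mars2 (0.24) and, in the cytosolic class, Rars (0.14) were also called higher.

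**Figure D3:**
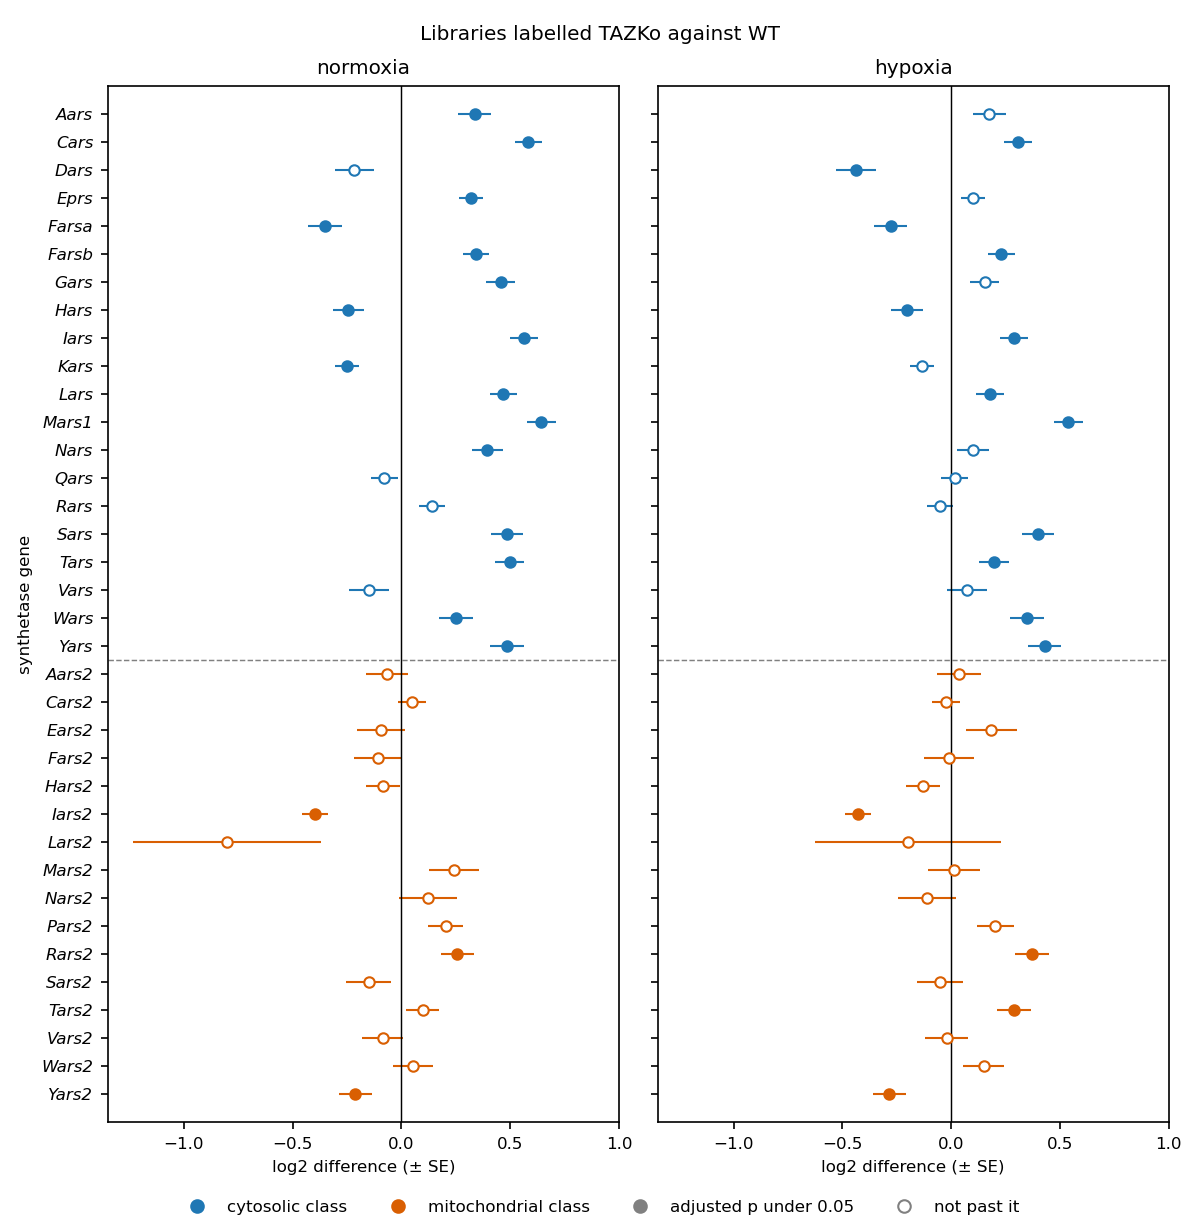
Log2 difference of the libraries labelled TAZKo against WT for each of the 36 members in normoxia (left) and hypoxia (right), with bars of ± 1 SE; filled points have an edgeR adjusted p under 0.05. Cytosolic genes (blue) lie mostly to the right, with Farsa and Hars left of zero and called in both panels, and mitochondrial genes (orange) lie on both sides of it; those called are Iars2, Yars2 and Rars2 in both panels and Tars2 in hypoxia. Lars2 lies farthest from zero in normoxia (-0.8), with the widest bar and no call.

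Between the hypoxia libraries of the genotypes, 9 of the 20 cytosolic genes were higher in TAZKo, 3 were lower and 8 did not pass, against 32.8% of all genes called (15.8% higher and 16.9% lower). The class median was 0.17 against -0.01 over all genes, and 0.11 without WT hypoxia replicate 1. Within lanes it was 0.28 in lane 4 (1 library a group) and 0.11 in lane 5 (2 a group). Without one library the number of called genes ranged from 8 to 14.

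Mars1 showed the largest difference again, with 215, 217 and 223 CPM in WT and 325, 318 and 308 CPM in TAZKo (log2 difference 0.54, SE 0.066, edgeR adjusted p = 3.43e-05). Yars measured 220, 223 and 223 CPM in WT and 303, 302 and 292 CPM in TAZKo (1.35-fold) and lies on chromosome 4, whose median difference in hypoxia was 0.12. Sars stood at 521, 525 and 517 CPM in WT and 689, 707 and 665 CPM in TAZKo, a 1.32-fold difference. In these genes the WT libraries lay within a few CPM of each other. Wars rose from 91.1, 87.1 and 89.5 CPM to 114, 119 and 108 CPM (log2 difference 0.35, edgeR adjusted p = 0.00399). Cars, Iars and Farsb also rose, by 1.24-fold, 1.22-fold and 1.17-fold. The Farsb call was lost without TAZKo hypoxia replicate 1 (0.2).

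Tars (0.2, edgeR adjusted p = 0.0368) and Lars (0.18, edgeR adjusted p = 0.0472) passed narrowly. Tars was not called without any of 10 libraries (0.11 to 0.22), all but WT normoxia replicate 1 and WT hypoxia replicate 3. Lars was not called without any of 10 (0.13 to 0.2), all but WT normoxia replicate 1 and TAZKo normoxia replicate 3.

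Dars, the aspartate enzyme gene of the multisynthetase complex, had the largest cytosolic fall, from 178, 199 and 193 CPM in WT hypoxia to 145, 137 and 139 CPM in TAZKo hypoxia (log2 difference -0.44, SE 0.091, edgeR adjusted p = 0.00228). In normoxia the same gene had 110, 147 and 142 CPM in WT against 111, 117 and 115 CPM in TAZKo, overlapping groups and no call (-0.22). Farsa again fell, from 141, 128 and 120 CPM to 109, 112 and 99.6 CPM (log2 difference -0.28, edgeR adjusted p = 0.0132), a call lost without TAZKo hypoxia replicate 3 (-0.24). Farsb stood at 75.1, 80.4 and 76.6 CPM in WT hypoxia and 93.6, 90 and 88.8 CPM in TAZKo hypoxia, so the opposite directions of the phenylalanine subunits were present in both oxygen conditions. Hars fell with an edgeR adjusted p of 0.0451 (log2 difference -0.2). This call was lost without TAZKo normoxia replicate 2, WT hypoxia replicates 1 or 2, or any TAZKo hypoxia library (-0.23 to -0.18). In this comparison the median of chromosome 18, where Hars lies, was -0.28, farther from zero than the Hars difference. That of chromosome 8, with Farsa and Kars, was -0.145. Gars (0.15, edgeR adjusted p = 0.095) and Kars (-0.14, edgeR adjusted p = 0.0752) did not pass, and Kars passed without WT normoxia replicate 1 (-0.14).

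Among the mitochondrial genes in hypoxia, 2 were higher, 2 lower and 12 not called, with a median of -0.02, which changed sign without WT hypoxia replicate 1 (0.003) or TAZKo hypoxia replicate 3 (0.008). Iars2 was lower again, with 145, 144 and 140 CPM in WT and 104, 114 and 101 CPM in TAZKo (log2 difference -0.43, SE 0.06, edgeR adjusted p = 0.00011), while its overlap partner Rab3gap2 differed by -0.41. Rars2 rose from 16.2, 18.5 and 15.4 CPM to 22.2, 20.3 and 22.4 CPM (log2 difference 0.37, SE 0.08, edgeR adjusted p = 0.00295). Tars2, for threonine, rose from 41.9, 41.3 and 38.8 CPM to 47.7, 50.8 and 50.3 CPM (log2 difference 0.29, edgeR adjusted p = 0.0117), a call lost without WT hypoxia replicate 3 (0.25). It lies on chromosome 3, whose median in this comparison was 0.044. Yars2 fell from 42.1, 38.1 and 38.2 CPM to 31.6, 33.4 and 32.1 CPM (log2 difference -0.28, edgeR adjusted p = 0.0107). In this comparison the groups did not overlap for 16 of 20 cytosolic and 6 of 16 mitochondrial genes, against 50% of all tested genes.

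The normoxia and hypoxia genotype comparisons share no library, so their calls can be set against each other. Of the cytosolic genes called higher, 9 were called in both, 69.2% of the 13 in normoxia and 100% of the 9 in hypoxia: Cars, Farsb, Iars, Lars, Mars1, Sars, Tars, Wars and Yars. Farsa and Hars were lower in both, 66.7% of each list. Among the mitochondrial genes Rars2 was higher in both and Iars2 and Yars2 were lower in both. Over all tested genes, 63% of those higher in normoxia and 61.9% of those higher in hypoxia were called in both, and 65.4% and 57.4% of those lower. No member was called in opposite directions.

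Hypoxia raised many cytosolic and lowered many mitochondrial synthetase genes in WT cells. Of the 20 cytosolic genes 10 rose, 3 fell and 7 did not pass. Of the 16 mitochondrial genes 1 rose, 8 fell and 7 did not pass. Over all genes 51% were called, 26% higher and 25% lower, so the shares called in each class (13 of 20 and 9 of 16) are near the background and the directions differ. The class medians were 0.21 and -0.3 against 0.01 over all genes. The cytosolic one was 0.1 with library size alone and 0.14 without a filter on low counts, and the mitochondrial one was -0.47 without WT normoxia replicate 2. Within lanes the cytosolic median was 0.22 in lane 4 and 0.32 in lane 5, and the mitochondrial median was -0.29 and -0.42. Lanes were not balanced between the conditions: lane 4 held 1 hypoxia and 2 normoxia libraries of a genotype, and lane 5 held 2 and 1.

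**Figure D4:**
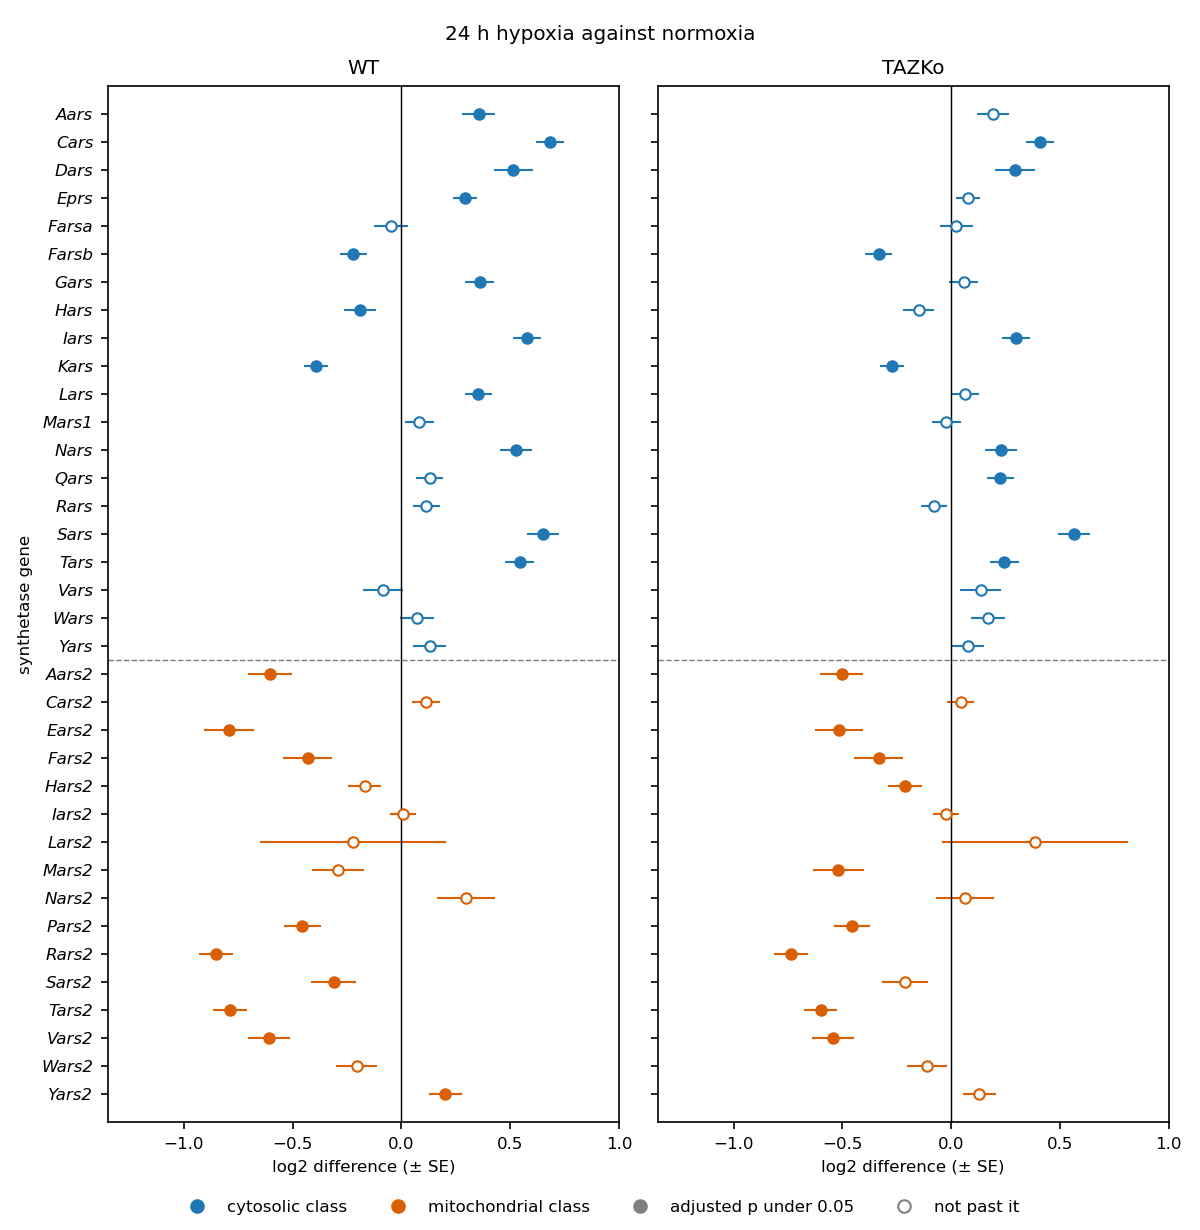
Log2 difference of 24 h hypoxia against normoxia for each of the 36 members in WT (left) and TAZKo (right), with bars of ± 1 SE; filled points have an edgeR adjusted p under 0.05. In both panels called cytosolic genes (blue) lie mostly right of zero and called mitochondrial genes (orange) lie left of it, except Yars2 in WT.

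Cars rose most, from 160, 146 and 142 CPM in normoxia to 226, 247 and 247 CPM in hypoxia (log2 difference 0.68, SE 0.064, edgeR adjusted p = 1.24e-06). Sars rose from 378, 317 and 301 CPM to 521, 525 and 517 CPM, a 1.57-fold difference. Iars measured 243, 256 and 242 CPM in normoxia and 337, 380 and 387 CPM in hypoxia. In each of them the hypoxia libraries were the higher ones. Tars went from 243, 243 and 236 CPM to 313, 367 and 372 CPM, and Nars, which charges asparagine, from 401, 437 and 399 CPM to 523, 632 and 624 CPM. The log2 differences of these 2 genes were 0.54 and 0.53. Dars, Gars, Aars, Lars and Eprs also rose (log2 difference 0.29 to 0.52). Mars1, with the largest called cytosolic difference between the genotypes, was not called (0.08, 95% interval -0.06 to 0.22), with overlapping groups. Ddit3, which shares exon bases with Mars1, rose by 2.26 on the log2 scale.

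Kars fell from 306, 284 and 274 CPM to 220, 222 and 217 CPM (log2 difference -0.39, SE 0.055, edgeR adjusted p = 4.82e-05), and Gars, the other gene that serves both compartments, rose from 383, 381 and 349 CPM to 450, 489 and 487 CPM (log2 difference 0.36, SE 0.067). Farsb fell from 85.5, 95.8 and 89.3 CPM to 75.1, 80.4 and 76.6 CPM (log2 difference -0.22, edgeR adjusted p = 0.00859), and Farsa was not called (-0.05). Hars fell with an edgeR adjusted p of 0.0401 (-0.19) and was not called without WT normoxia replicate 1 or WT hypoxia replicate 3 (-0.21 to -0.12).

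On the mitochondrial side the largest fall in WT was that of Rars2 (chr4:34614957-34660167 in mm10), whose promoter stretch is shown above. It measured 28.2, 31.6 and 30.5 CPM in normoxia and 16.2, 18.5 and 15.4 CPM in hypoxia (log2 difference -0.85, SE 0.08, edgeR adjusted p = 1.19e-06), 0.554 of the normoxia level. Ears2, which charges glutamate, measured 16.5, 15.2 and 13.4 CPM and then 9.4, 9.11 and 7.61 CPM (0.576 of the normoxia level). It had the lowest count of any member, 188, which is well above the floor of 3 counts. Tars2 fell from 76.8, 70.7 and 63.6 CPM to 41.9, 41.3 and 38.8 CPM (log2 difference -0.79, SE 0.078, edgeR adjusted p = 1.88e-06).

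Vars2, the valine enzyme gene, fell from 57.8, 45.1 and 46.3 CPM to 36.5, 30.9 and 30.5 CPM, and Aars2, for alanine, from 32.5, 25.8 and 25.9 CPM to 20.3, 16.9 and 18.1 CPM, by 0.61 and 0.6 on the log2 scale. Groups that did not overlap were found for 14 of 20 cytosolic and 11 of 16 mitochondrial genes, against 54.6% of all tested genes. Pars2 (proline), Fars2 (phenylalanine) and Sars2 (serine) also fell, by 0.46, 0.43 and 0.31. The Sars2 call was lost without WT normoxia replicate 1 (-0.19). Of the Fars2 exon bases, 10.7% overlap other genes on the opposite strand, among them Lyrm4, which fell by 0.66.

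Yars2 rose against its class, from 32.7, 36.7 and 33.5 CPM to 42.1, 38.1 and 38.2 CPM (log2 difference 0.2, edgeR adjusted p = 0.0398). This call was the least steady among the members: it was lost without any single one of the 12 libraries (0.1 to 0.2), and with library size alone or upper quartile scaling the mitochondrial split was 0 higher and 11 lower in place of 1 and 8. DESeq2 gave 0 higher and 9 lower. With library size alone the median of all genes shifted by -0.11, and the split of all called genes went from 3750 higher and 3605 lower to 2966 and 4817 (3277 and 4266 with upper quartile scaling). Iars2 had the largest difference of the mitochondrial genes called lower between the genotypes. It was not called with hypoxia (0.01, 95% interval -0.12 to 0.14), while its overlap partner Rab3gap2 rose by 0.72. With hypoxia in TAZKo the values of these 2 genes were -0.02 and 0.53. With the replicate number as a block, Hars2 (-0.17) and Mars2 (-0.29) were also called lower.

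In the libraries labelled TAZKo, hypoxia also raised cytosolic and lowered mitochondrial genes; the test of the difference from WT follows below. Of the 20 cytosolic genes 7 rose, 2 fell and 11 did not pass, with a median of 0.11 that went to 0.015 without TAZKo normoxia replicate 3 and to 0.06 without TAZKo hypoxia replicate 1 or 2. Of the 16 mitochondrial genes 9 fell and 7 did not pass, with a median of -0.27. Over all genes 43.8% were called, 22.2% higher and 21.6% lower, with a median of -0.01, so the share of cytosolic genes called (9 of 20) is near the background. Within lanes, with the same unequal numbers of libraries as in WT, the cytosolic median was 0.08 in lane 4 and 0.2 in lane 5. The mitochondrial median was -0.39 and -0.22. The cytosolic split depended on scaling: with library size alone, which moved the median of all genes by -0.09 and their split from 3198 higher and 3111 lower to 2470 and 4393, it was 3 higher and 4 lower and the median was 0.011. The number called higher was 4, 3, 4, 3 and 4 without TAZKo normoxia replicate 1 or 3 or TAZKo hypoxia replicate 1, 2 or 3.

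Sars rose from 475, 471 and 448 CPM in normoxia to 689, 707 and 665 CPM in hypoxia (log2 difference 0.56, SE 0.073, edgeR adjusted p = 3.47e-05). Cars rose from 231, 229 and 211 CPM to 291, 307 and 293 CPM (1.33-fold), and Iars from 379, 376 and 341 CPM to 457, 458 and 434 CPM (1.23-fold). The TAZKo hypoxia level of these 3 genes was the highest of the 4 groups. Dars, Tars, Nars and Qars rose less, with log2 differences from 0.23 to 0.29, and each call was lost in several refits without 1 library. Dars (111, 117 and 115 CPM against 145, 137 and 139) was lost without any of the 6 TAZKo libraries (0.23 to 0.28). Tars (334, 360 and 326 CPM against 397, 408 and 401) was lost without TAZKo normoxia replicates 1 or 3 or TAZKo hypoxia replicates 2 or 3 (0.18 to 0.21). Nars (540, 568 and 520 CPM against 635, 651 and 621) was lost without WT normoxia replicate 3, TAZKo normoxia replicates 1 or 3 or any TAZKo hypoxia library (0.17 to 0.21), and Qars without TAZKo normoxia replicates 2 or 3 or TAZKo hypoxia replicates 1 or 2 (0.18 to 0.19). Without TAZKo hypoxia replicate 2, 5 cytosolic genes were called in place of 9.

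Farsb fell from 116, 119 and 108 CPM to 93.6, 90 and 88.8 CPM (log2 difference -0.33, SE 0.061, edgeR adjusted p = 0.000637) and Kars from 248, 246 and 232 CPM to 197, 202 and 201 CPM (log2 difference -0.27, SE 0.055, edgeR adjusted p = 0.00116). Kars thus had its lowest level in TAZKo hypoxia, below all libraries of the other groups. Gars (0.06), Farsa (0.02) and Mars1 (-0.02) were not called, while Ddit3, which shares exon bases with Mars1, rose by 1.41.

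Rars2 again fell most, from 35.8, 36 and 36.1 CPM to 22.2, 20.3 and 22.4 CPM (log2 difference -0.74, SE 0.077, edgeR adjusted p = 5.32e-06). Tars2 fell from 81.5, 72.1 and 72.1 CPM to 47.7, 50.8 and 50.3 CPM (0.66 of the normoxia level), and Vars2 from 49.4, 46.4 and 44.7 CPM to 32.1, 33 and 31.2 CPM (0.686). Mars2, the mitochondrial methionine enzyme gene, fell from 22.1, 27.3 and 24.4 CPM to 17, 17.8 and 16.7 CPM (log2 difference -0.52, SE 0.116, edgeR adjusted p = 0.00252). In this comparison the groups did not overlap for 12 of 20 cytosolic and 11 of 16 mitochondrial genes, against 61.1% of all tested genes. Ears2 fell from 14.7, 14.9 and 12.7 CPM to 9.53, 10.9 and 9.13 CPM. Aars2, Pars2, Fars2 and Hars2 fell by 0.21 to 0.5 on the log2 scale, and Hars2, the histidine gene that shares 195 exon bases with Hars on the opposite strand, and Fars2 passed narrowly. Fars2 was not called without TAZKo normoxia replicates 1 or 2 or TAZKo hypoxia replicate 3 (-0.33 to -0.27), and Hars2 without TAZKo normoxia replicate 1 or TAZKo hypoxia replicates 1 or 2 (-0.24 to -0.18).

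The 2 hypoxia comparisons share no library but come from the same fit. Of the cytosolic genes, 6 were called higher in both (Cars, Dars, Iars, Nars, Sars and Tars), 60% of the 10 in WT and 85.7% of the 7 in TAZKo. Farsb and Kars were lower in both. Of the mitochondrial genes 7 were lower in both (Aars2, Ears2, Fars2, Pars2, Rars2, Tars2 and Vars2), 87.5% of the 8 in WT and 77.8% of the 9 in TAZKo. The same shares over all tested genes were 70.9% and 83.1% for higher and 69.1% and 80% for lower genes. No member was called in opposite directions.

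Whether the synthetases responded differently to hypoxia with and without tafazzin was tested as an interaction. None of the 36 members passed, by edgeR or by DESeq2, where 2.43% of all genes did by edgeR (0.722% higher and 1.71% lower). At an unadjusted p under 0.05, 8 of 20 cytosolic genes (40%) and 0 of 16 mitochondrial genes were below it, against 15.8% of all genes. All 8 had a lower response in TAZKo than in WT: Rars, Eprs, Cars, Iars, Lars, Nars, Tars and Gars, with log2 differences of the responses from -0.3 to -0.19 and edgeR adjusted p from 0.122 to 0.291. For Lars, the response was 0.35 in WT and 0.06 in TAZKo, a difference of -0.29 (95% interval -0.49 to -0.1). For Rars2, the mitochondrial gene with the largest responses, the difference was 0.12 (95% interval -0.12 to 0.35). The class medians were -0.14 and 0.08 against -0.02 over all genes. The cytosolic one was -0.08 without WT normoxia replicate 3 and -0.09 without TAZKo hypoxia replicate 3, and the mitochondrial one 0.13 without TAZKo normoxia replicate 1 and -0.03, with the other sign, without WT normoxia replicate 1. Cars passed without WT normoxia replicate 1 (-0.33), and Nars (-0.36) and Tars (-0.35) passed without WT hypoxia replicate 1, so no single synthetase was shown to respond less in TAZKo with all 12 libraries in the fit.

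Setting each cytosolic gene beside the mitochondrial gene for the same amino acid gave 17 pairs, with Eprs, which charges both glutamate and proline, and Fars2, beside both phenylalanine subunits, entering more than 1 pair. The pairing was made after the values were seen. In WT hypoxia against normoxia, the cytosolic log2 difference exceeded the mitochondrial one in 15 of 17 pairs, with a median gap of 0.57. The widest called gap was that of Tars and Tars2, 1.33, where the cytosolic gene rose and the mitochondrial gene fell. The same was seen for Aars and Aars2, Sars and Sars2, and Eprs with Ears2 and with Pars2, 5 pairs in all. In TAZKo the cytosolic difference exceeded the mitochondrial one in 14 pairs, with a median gap of 0.36, and the Tars pair, with a gap of 0.84, was the single one with a called rise and a called fall. Between the genotypes the cytosolic gene was the more raised in 13 pairs in normoxia and 11 in hypoxia. No pair in any comparison had a called cytosolic fall with a called mitochondrial rise.

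Subgroups of the cytosolic class differed in their counts. Over all tested genes, 15.6% were called higher and 14.9% lower in TAZKo normoxia, and 15.8% and 16.9% in TAZKo hypoxia. With hypoxia these shares were 26% and 25% in WT and 22.2% and 21.6% in TAZKo. The 12 genes named in the literature as targets of the ATF4 amino acid response (Aars, Cars, Eprs, Gars, Iars, Lars, Mars1, Nars, Sars, Tars, Wars and Yars) all rose in TAZKo normoxia, with a median of 0.48, while the other 8 had 1 gene higher and 3 lower and a median of -0.18. In the other comparisons the 12 had 8 higher in TAZKo hypoxia against WT hypoxia, 9 higher in WT with hypoxia and 5 higher in TAZKo with hypoxia, and 0 lower each time. The 5 became 3 with library size alone or without TAZKo normoxia replicate 1 or 3 or TAZKo hypoxia replicate 2 or 3. The other 8 had 1 higher and 3 lower, 1 and 3, and 2 and 2. In the interaction no gene of either group was called. The median was -0.25 for the 12, with 1 of them positive, and 0.06 for the other 8, with 5 positive. The list was set with earlier results of these data known, so its direction is no independent evidence. By place, the 8 enzymes of the multisynthetase complex had 4 higher and 1 lower in TAZKo normoxia, a median of 0.23, and the 12 outside it had 9 higher and 2 lower, a median of 0.37. With hypoxia in WT these were 4 and 1 in the complex and 6 and 2 outside it. By fold of the catalytic domain, the 9 class I genes had 6 higher and 0 lower in TAZKo in normoxia and in hypoxia, and the 10 class II genes had 6 higher and 3 lower in normoxia and 3 and 3 in hypoxia. Without Gars and Kars, the cytosolic class had 12 higher and 2 lower in TAZKo normoxia and 9 higher and 2 lower in WT with hypoxia.

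Lars2 varied between libraries of the same group more than any other member. The WT libraries had 312, 323 and 1005 CPM under normoxia and 424, 552 and 433 CPM under hypoxia, and the TAZKo libraries 287, 332 and 322 CPM and then 170, 512 and 545 CPM. WT normoxia replicate 3 thus stood far above its group and TAZKo hypoxia replicate 1 far below its own. With the filter on low counts no comparison of Lars2 was called, with log2 differences of -0.8 (SE 0.431) and -0.2 (SE 0.428) between the genotypes and -0.22 (SE 0.428) and 0.38 (SE 0.429) with hypoxia. Without the filter on low counts, Lars2 was called lower in TAZKo normoxia (-0.84), lower with hypoxia in WT (-0.3) and higher with hypoxia in TAZKo (0.36). Gm15564, an antisense gene annotated on chromosome 16, ran beside it with 70.1, 73.7 and 236 CPM in WT normoxia and 39.2, 128 and 129 CPM in TAZKo hypoxia, and the ratio of Lars2 to Gm15564 counts stayed between 3.99 and 4.46 in all 12 libraries. CT010467.1, annotated as ribosomal RNA on chromosome 17, had 1171, 895 and 3291 CPM in WT normoxia and 506, 1623 and 1962 CPM in TAZKo hypoxia. These genes were found by searching all genes for those closest to Lars2 after its values were seen, and the part of ribosomal RNA in the Lars2 counts was not tested. Lars2 is therefore left out of the sums above.

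**Figure D5:**
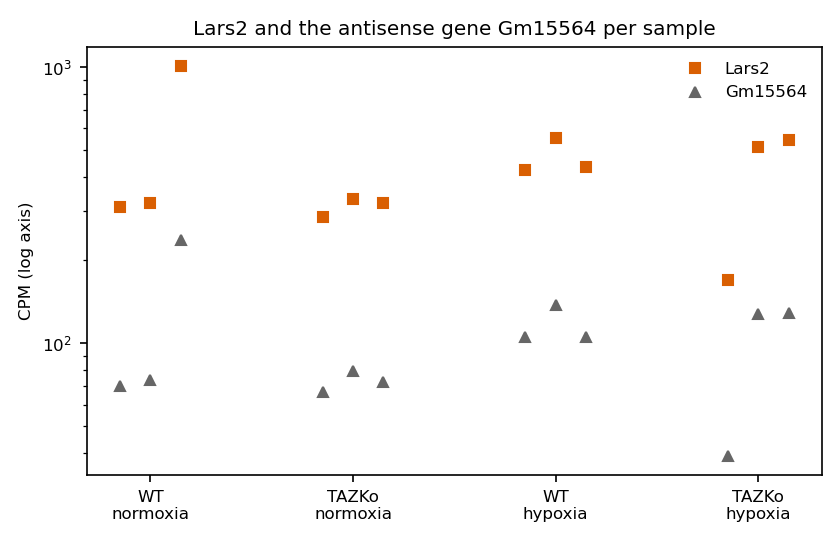
CPM of Lars2 (squares) and the antisense gene Gm15564 (triangles) in each of the 12 libraries on a log axis, replicates 1 to 3 from left to right in each group. Both genes are highest in WT normoxia replicate 3 (1005 and 236 CPM) and lowest in TAZKo hypoxia replicate 1 (170 and 39.2 CPM).

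Other genes of tRNA charging and translation were counted from fixed lists. The shares of all tested genes given above for the subgroups are the background for these counts as well. Of the 3 scaffold genes of the multisynthetase complex, Aimp2 rose with hypoxia (log2 difference 1.07 for WT and 1.02 for TAZKo) and was lower in TAZKo by 0.24 and 0.29, and the other 2 were not called. Xpot, which exports tRNA from the nucleus, rose in all 4 comparisons, by 0.76 and 0.68 between the genotypes and 0.55 and 0.47 with hypoxia. It lies on chromosome 10, whose median difference between the genotypes was 0.31 in normoxia and 0.29 in hypoxia, as do Eef2, Mtrf1l and Qrsl1 below. Its list of 6 export and elongation genes had 2 higher and 1 lower in TAZKo normoxia, 3 and 0 in TAZKo hypoxia, 3 and 2 in WT with hypoxia and 3 and 0 in TAZKo with hypoxia. Eef2, the translocation factor of the ribosome, rose in all 4, by 0.32, 0.59, 0.22 and 0.5, and Eef1g fell in TAZKo normoxia by 0.4 and with hypoxia in WT by 0.37. Eef1g lies on chromosome 19, with a median of -0.27 in normoxia.

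Of all tested genes, 25% were called lower with hypoxia in WT and 21.6% in TAZKo, and 15.6% were called higher in TAZKo normoxia. On the mitochondrial side, 0 of 8 translation factors rose and 5 fell with hypoxia in each genotype (Tufm, Tsfm, Gfm1, Gfm2 and Mrrf), with medians of -0.39 in WT and -0.27 in TAZKo. The falls with the largest size were Tsfm (-0.57) and Gfm1 (-0.48) in WT and Gfm2 (-0.58) and Gfm1 (-0.5) in TAZKo. Between the genotypes 2 were higher in normoxia (Mtrf1l by 0.48 and Mtif2 by 0.29) and 1 was lower in hypoxia (Gfm2, -0.17). Of 4 partners that complete mitochondrial charging by forming glutaminyl-tRNA or formylmethionyl-tRNA, 3 fell with hypoxia in WT (Gatb by 0.52, Mtfmt by 0.33 and Qrsl1 by 0.29) and 2 in TAZKo (Gatb by 0.6 and Qrsl1 by 0.45), and Gatc (0.34) and Qrsl1 (0.28, below its chromosome's median) were higher in TAZKo normoxia, Gatc also in TAZKo hypoxia (0.21). Of 5 editing and related genes, Aarsd1, Dtd1 and Dtd2 fell with hypoxia in both genotypes. The falls were 0.9 for Aarsd1 and 0.46 for Dtd2 in WT, and 0.8 for Aarsd1 and 0.55 for Dtd1 in TAZKo. Aarsd1 had a low level, a mean of 1.5 CPM in WT normoxia and 0.809 CPM in WT hypoxia (SE of the log2 difference 0.28). Tarsl2, a threonine enzyme related to Tars, was higher in TAZKo in normoxia (0.33) and hypoxia (0.22), and Dtd1 was lower in TAZKo hypoxia (-0.3).

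Atf4 and 19 related genes of its response outside the synthetases, a list known to move from earlier results of these files, gave the context of the cytosolic class. In TAZKo normoxia 19 of the 20 rose and 0 fell, with a median of 1.02, led by Aldh1l2 (2.68, on chromosome 10) and Trib3 (2.37). In hypoxia 12 were higher and 4 lower in TAZKo, with a median of 0.48, from Aldh1l2 (2.03) to Atf3 (-1.3). With hypoxia 16 rose and 0 fell in WT, a median of 1.1, led by Atf3 (3.87) and Stc2 (2.98), and 10 rose and 2 fell in TAZKo, a median of 0.2, led by Atf3 (2.09) and Ddit4 (1.86). The interaction called 11 of the 20, all with a lower response in TAZKo, against 2.43% of all tested genes (1.71% lower). It called none of the synthetases, though the 12 of them named as ATF4 targets also had a negative median (-0.25).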

How the data were processed

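RNA from cultured MEFs (Trizol, TruSeq RNA v2 libraries) was sequenced in 12 samples, 3 per group. The deposited tables hold raw counts per gene made by the authors; the genome build is mm10 per the submitters' processing notes, and the aligner and counter are not given in the sources used here. Groups come from the labels, and lanes from the names of the tables. Gene symbols, lengths and overlaps come from GENCODE M21 (48349 of 48709 gene IDs matched, 360 did not), and promoter windows from RefSeq (GRCm38.p6). The stretch of 1 further window with a match is not reported here.

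Counts were tested with edgeR 4.0.16 (limma 3.58.1, R 4.3.3): filterByExpr, which left 14408 genes, TMM scaling, and a quasi-likelihood fit with 1 term per group over all 12 samples. P-values were Benjamini-Hochberg adjusted over all tested genes, with a threshold of 0.05. CPM values were computed from the deposited counts with the TMM factors and no prior count; log2 CPM per library has a prior count of 2. Intervals are 95% and use the fitted degrees of freedom. The biological coefficient of variation was 8.62%. Simulated data for TAZKo against WT in normoxia held 13831 tested genes. Of genes changed by 1 on the log2 scale 100% were called, of those changed by 0.5 87%, and of unchanged genes 0.0367%. The simulation gave all genes the same spread and changed only a small set of well-counted genes. These rates are therefore not those of the real comparisons.

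The members and lists were chosen with earlier results of these data known. In each comparison the 5 genes of each class with the largest called and non-overlapping differences are given per sample, with Gars, Kars, Farsa, Farsb and any gene called against its class. Cognate pairs, overlap partners and the genes that follow Lars2 were chosen after their values were seen. Alternatives were other scalings, DESeq2 1.42.0, other filters, a replicate block, a lane term, only the samples compared, an added fold threshold, and leaving out each sample. Same-numbered samples deviated together, with r = 0.354, 0.149 and 0.228 between genotypes in normoxia and 0.368, 0.204 and 0.152 between conditions in WT. Replicates 2 and 3 also did so across numbers (r = 0.116 and 0.112, then 0.147 and 0.18), and replicate 1 correlated negatively with both. These correlations thus set replicate 1 apart and do not settle a pairing by number, which no label states. The main fit has no pairing term, and the replicate block was an alternative.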

Additional observations from a re-analysis of the deposited data

Results flagged for a closer look

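The hypoxia response of 2 ATF4-related genes outside the synthetases differed between the genotypes by the interaction test. Trib3, a pseudokinase gene induced by stress, rose with hypoxia by 2.9 on the log2 scale in WT and by 1.11 in the libraries labelled TAZKo, a difference of -1.79 (edgeR adjusted p = 0.00016). Atf3, a stress transcription factor, rose by 3.87 in WT and by 2.09 in TAZKo, a difference of -1.78 (edgeR adjusted p = 0.00016). No synthetase passed this test. The mean level of Trib3 was 21.9 CPM in WT and 113 CPM in TAZKo under normoxia, and 162 and 244 CPM under hypoxia. For Atf3 the means were 7.61 and 10.6 CPM, then 111 and 45.1 CPM. In hypoxia Trib3 was thus the higher in TAZKo and Atf3 the lower. Both come from the list known to move from earlier results of these files.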

How the results depend on the processing

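No called difference of a member changed sign under any alternative. Over all members and alternatives 115 of 3744 values did, with sizes of at most 0.61 for Lars2 and 0.12 for the others. Of the called members, 15 of 19 kept the call under every alternative in TAZKo against WT in normoxia, 10 of 16 in hypoxia, 19 of 22 with hypoxia in WT and 12 of 18 in TAZKo. A log2 change of at least 1 was met by 0 members of either class in every comparison. Leaving out 1 sample at a time gave 15 to 17, 8 to 14, 12 to 14 and 5 to 12 called cytosolic genes in these 4 comparisons and 0 to 2 in the interaction, and 1 to 4, 3 to 5, 9 to 11, 7 to 10 and 0 mitochondrial genes. Without the filter on low counts, 1 mitochondrial gene was called in the interaction, Lars2 (0.66), which this setting also called in 3 of the other 4 comparisons. Signs changed for uncalled values with hypoxia in TAZKo: Farsa (-0.07 with library size alone, 0 without a filter and 0 with upper quartile scaling; -0.04 to 0.04 without single samples), Gars (-0.04 with library size alone; -0.04 to 0.06), Lars2 (-0.1 with the lane term) and Mars1 (0 with the lane term). They also changed with hypoxia in WT for Mars1 (-0.03 with library size alone; -0.02 to 0.13), and without single samples for Farsa (-0.16 to 0.01) and Lars2 (-0.54 to 0.51). Without single samples the same held for Lars2 between genotypes in hypoxia (-0.47 to 0.16) and for the interactions of Lars2 (-0.15 to 1), Sars (-0.19 to 0.01) and Yars (-0.16 to 0.04). The cause of these changes was not tested. The replicate block gave 17, 12, 13, 11 and 0 called cytosolic genes and 4, 4, 11, 9 and 0 mitochondrial ones, lost no call and moved no count by over 1.5 times. Beside the calls given above it added Aars (0.19) and Wars (0.17) with hypoxia in TAZKo; same-numbered samples did not deviate together in the other 2 comparisons (r = 0.055, -0.024 and 0.121; 0.028, -0.024 and 0.095). Each refit without 1 sample also set the filter and the scaling anew, even for comparisons that do not hold that sample. With hypoxia in WT, the median of all genes went from 0.009 to -0.045 without TAZKo hypoxia replicate 2. Between the genotypes in normoxia it went from 0.01 to -0.024 without WT hypoxia replicate 2. How far this shift accounts for the lost calls was not tested. Depth limits the members little, since the lowest count of any member was 188.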
